A study of Homo sapiens with 6 samples.

Results

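The spindlin genes SPIN1, SPIN3 and SPIN4 were examined in HCT116 cells, a human colorectal cancer line. They were taken by name from the expression table, and they make up 3 of its 50868 genes and 3 of the 5 protein-coding genes of the family, the others being SPIN2A and SPIN2B. SPIN1 had been chosen by its own change in these samples, as one of the genes that rose most in pcYY2, and SPIN3 and SPIN4 came with it as relatives. The difference between pcYY2 and pcCon is therefore given for the 3 genes as a description, without a p-value, and no call of theirs is read as a result. RNA-Seq on polyA RNA had been performed on cells transfected with pcYY2, a plasmid that overexpresses the transcription factor YY2 (n = 3), or with the empty vector pcDNA3.1(+), called pcCon (n = 3). The labels name no other agent, and no source states whether the samples of a group were separate cultures, so the errors and p-values measure only the spread between these samples. In a bulk sample, the share of cells that took up the plasmid and the response per cell cannot be told apart.

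Spindlins are small nuclear proteins built from Tudor-like domains that recognize modified tails of histone H3. Spindlin 1, the product of SPIN1, reads trimethylated lysine 4 of histone H3 (H3K4me3), a mark of active promoters, and can read it together with methylated arginine 8 or lysine 9 of the same tail. It is known to act on rRNA genes in the nucleolus and as a coactivator of TCF4, the partner of beta-catenin in Wnt signaling, which is constitutively active in most colorectal cancers. SPINDOC is a binding protein that restrains it.

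SPIN1 lies on the plus strand of GRCh38 chromosome 9 from 88388419 to 88478694, with 6 exons in its canonical transcript in GENCODE 44. SPIN3 and SPIN4 lie on the minus strand of chromosome X, SPIN3 from 56976370 to 56995537 and SPIN4 from 63347228 to 63351344. The canonical transcript of SPIN4 has 1 exon and that of SPIN3 has 2. The start regions of the 3 genes are shown because YY2 binds DNA, and the sequence it is known to share with YY1 could be looked for there. Each run below covers 250 bases before and 50 bases after the RefSeq start of the gene (GRCh38.p14, in the direction of the gene), at chr9:88388194-88388493 (plus strand), chrX:56995492-56995791 (minus strand) and chrX:63351283-63351582 (minus strand), and capitals mark a match to the core GCCAT on either strand.
SPIN1: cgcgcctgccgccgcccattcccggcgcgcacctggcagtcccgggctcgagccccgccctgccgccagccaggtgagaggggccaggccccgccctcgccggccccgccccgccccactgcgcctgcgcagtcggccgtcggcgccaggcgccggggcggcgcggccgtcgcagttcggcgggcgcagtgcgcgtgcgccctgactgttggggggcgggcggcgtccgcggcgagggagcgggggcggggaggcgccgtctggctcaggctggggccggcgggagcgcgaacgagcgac
SPIN3: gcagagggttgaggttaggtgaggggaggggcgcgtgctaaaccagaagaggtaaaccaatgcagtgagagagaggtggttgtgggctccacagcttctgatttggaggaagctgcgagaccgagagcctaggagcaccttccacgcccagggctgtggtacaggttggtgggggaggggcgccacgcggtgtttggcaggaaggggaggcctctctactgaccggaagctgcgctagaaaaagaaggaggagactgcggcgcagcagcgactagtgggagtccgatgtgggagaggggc
SPIN4: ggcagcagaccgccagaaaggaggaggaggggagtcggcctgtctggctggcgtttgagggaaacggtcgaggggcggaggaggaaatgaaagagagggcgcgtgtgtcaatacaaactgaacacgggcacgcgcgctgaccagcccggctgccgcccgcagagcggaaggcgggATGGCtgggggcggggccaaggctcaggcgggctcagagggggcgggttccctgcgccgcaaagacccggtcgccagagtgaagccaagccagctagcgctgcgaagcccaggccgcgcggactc

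SPIN4 held 1 match to the core, on the reverse strand and beginning 75 bases before the start, whereas SPIN1 and SPIN3 held 0 matches. The core occurred in 37.8% of the 35116 RefSeq windows of this length. The longer form GCCATNTT, which contains the core, occurred in 6.58% of the windows and in none (0) of these 3. Sites that depart from the core or lie outside these windows were not looked for, and binding of YY2 was not tested. G and C made up 83.0% of the SPIN1 window, a share higher than in 99.2% of all windows, and it held 51 CpG dinucleotides against a median of 14. The SPIN3 window was close to the median of all windows, with 61.3% G and C against 58.7% and 14 CpG dinucleotides. SPIN4 lay between them, with 69.0% G and C and 29 CpG dinucleotides.

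The groups were compared with edgeR's quasi-likelihood test over 12015 genes, those whose FPKM averaged 1 or more. FPKM is the number of reads of a gene scaled to its length and to the reads of the sample. A gene is called here if its Benjamini-Hochberg adjusted p did not exceed 0.05. YY2 served as a check of the labels, with 111, 126 and 72 reads in pcCon samples 1 to 3 and 488, 898 and 555 reads in pcYY2 samples 1 to 3, where reads of the plasmid and of the YY2 gene cannot be told apart. YY1, its homolog, was not called (log2 fold change 0.17, standard error or SE 0.0886, edgeR adjusted p = 0.260). Between 15158360 and 29572882 reads were counted per sample, and the deepest sample was pcYY2 sample 2. Of 9 markers of colon epithelium, 6 had an FPKM of over 1, among them EPCAM and KRT8. VIL1 and LGALS4 were near 0, and CDH17 had 0 reads in all 6 samples. The summed FPKM of these 9 markers was 301.5 to 313.8 in pcCon and 393.4 to 428.7 in pcYY2, and its part in the results below was not tested. The summed FPKM of 8 markers of other cell types was 2.07 to 2.33 in pcCon and 2.25 to 3.16 in pcYY2, and COL1A1 was the only one of them with a mean of at least 1.

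SPIN1 (ENSG00000106723) had 637, 532 and 615 reads in pcCon samples 1 to 3, which correspond to an FPKM of 5.15, 4.29 and 5.97. In pcYY2 samples 1 to 3 it had 2122, 3507 and 2243 reads, or an FPKM of 20.4, 17.5 and 18.0. All 3 pcYY2 samples lay above all 3 pcCon samples, and even the lowest pcYY2 sample was 2.92-fold above the highest pcCon sample. The pcCon mean of 5.14 ± 0.840 (SD, n = 3) stood against a pcYY2 mean of 18.6 ± 1.57 (SD, n = 3), and the fitted difference was 3.66-fold, or 1.87 on the log2 scale (SE 0.126). In pcCon SPIN1 was near the middle of the tested genes, 51.6% of which had a lower mean FPKM, and in pcYY2 85.8% had one. Of all tested genes, 99.9% had a lower log2 fold change. Among called genes whose groups did not overlap, SPIN1 ranked 4 by log2 fold change, between DGKH, a diacylglycerol kinase (1.98), and KRT20, a keratin of intestinal epithelium (1.77), and the first gene outside the highest 5 was at 1.32.

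SPIN4 (ENSG00000186767), a relative without introns, had an FPKM of 2.87, 2.77 and 2.69 in pcCon samples 1 to 3. Its FPKM in pcYY2 samples 1 to 3 was 2.85, 2.42 and 2.63, from 335 to 588 reads per sample over both groups. The groups overlapped, since pcYY2 sample 1 lay within the range of pcCon. From a pcCon mean of 2.78 ± 0.0921 (SD, n = 3), SPIN4 went to 2.63 ± 0.215 (SD, n = 3), and the log2 fold change was -0.07 with a standard error of 0.0858.

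SPIN3 (ENSG00000204271) had an FPKM of 1.77, 1.78 and 1.71 in pcCon samples 1 to 3. In pcYY2 samples 1 to 3 it was 1.45, 1.53 and 1.49, from 86 to 175 reads per sample over both groups. The 3 pcYY2 samples lay below the 3 pcCon samples, although the gap was small. The pcCon samples averaged 1.75 ± 0.0432 (SD, n = 3) and the pcYY2 samples 1.49 ± 0.0394 (SD, n = 3), with a log2 fold change of -0.22 and a standard error of 0.107. Of all tested genes, 17.4% had a lower log2 fold change.

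Beside the members, SPIN2B (ENSG00000186787, chromosome X from 57118551 to 57121547) was low, with 41 to 48 reads per sample in pcCon and 35 to 42 in pcYY2. In pcCon the FPKM averaged 0.459 ± 0.00715 (SD, n = 3) and in pcYY2 0.338 ± 0.0975 (SD, n = 3), and the fit with the lower filter of 0.1 gave a log2 fold change of -0.43 with an SE of 0.243. With so few reads of SPIN2B, counting error exceeds its SD in pcCon, which is not read as precision. SPIN2A had 1 read in pcYY2 sample 3 and 0 in the other samples, which lies under the floor of 3 counts. Of the 50-base windows of the canonical SPIN2B transcript, 64.3% also occur in SPIN2A, so reads of this pair could have been split or dropped by the counting. For SPIN1, SPIN3 and SPIN4, 0 such windows occur in the GENCODE transcripts of any other gene. SPINDOC, the spindlin 1 binding protein, had a higher FPKM than each spindlin gene, 25.4 ± 1.65 (SD, n = 3) for pcCon against 24.7 ± 1.42 (SD, n = 3) for pcYY2, and it was not called (log2 fold change -0.03, SE 0.0719, edgeR adjusted p = 0.829).

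The make-up of the family is given as a description, since its shift restates the change of SPIN1 for which that gene was chosen. The shares also depend on the gene lengths behind the FPKM, described below. Of the summed FPKM of the 5 genes, SPIN1 held 50.2%, 46.1% and 55.1% in pcCon samples 1 to 3 and 81.1%, 80.6% and 80.1% in pcYY2 samples 1 to 3. The sum without SPIN1 was 5.10, 5.01 and 4.86 in pcCon and 4.74, 4.19 and 4.46 in pcYY2.

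In FPKM the order of levels in pcCon was SPIN1, SPIN4, SPIN3 and SPIN2B, and the ranges of genes next to each other in this order did not overlap. The same order held in pcYY2. The gene length behind the FPKM could be worked out from the counts, and it was 8229 bases for SPIN4, which is 2.00 times the 4117 bases that the gene spans. A length above the span of the gene by over 2% was found for 1149 of the 12420 genes with at least 100 reads in a sample, so levels of different genes were also compared per kilobase of the canonical transcript, scaled to the reads of the sample as FPKM is. On this scale SPIN1 stood at 6.54 to 9.10 in pcCon and at 26.6 to 31.1 in pcYY2. SPIN4 stood at 5.38 to 5.75 in pcCon and 4.84 to 5.71 in pcYY2, and SPIN3 at 1.48 to 1.55 and 1.26 to 1.33. SPIN1 was thus 1.18 to 1.69 times SPIN4 in the pcCon samples and 5.19 to 5.49 times SPIN4 in the pcYY2 samples, and SPIN4 was 3.58 to 4.52 times SPIN3 over all 6 samples. SPIN2B was above SPIN3 in pcCon on this scale (2.09 to 2.14) and overlapped it in pcYY2 (1.13 to 2.02). The scale divides all reads of a gene by the length of 1 transcript. For SPIN3 that was 4445 bases, against 3869 behind its FPKM, and for SPIN2B the latter length was not worked out. Order and ratios between genes thus depend on the length used, and in FPKM SPIN4 was 1.55 to 1.96 times SPIN3. The changes between groups of 1 gene do not depend on this length.

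The spread between samples of a group also differed among the 3 genes. The SD within groups on the log2 CPM scale, that is of counts scaled to the reads of the sample, was 0.187 for SPIN1, larger than for 74.8% of tested genes, 0.0852 for SPIN4 and 0.0393 for SPIN3, against a median of 0.113 over all tested genes. SPIN3 had 86 to 175 reads per sample, where counting error alone exceeds its SD, so its small spread is not read as precision. The gap between the lowest pcYY2 sample and the highest pcCon sample of SPIN1 was 1.57 on the log2 CPM scale.

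Over all tested genes 9.37% were called, 4.52% as higher and 4.85% as lower in pcYY2. SPIN1 was among them, which is what it had been chosen for, and SPIN3 and SPIN4 were not, so 1 of 3 members was called, from which nothing is read. The groups did not overlap in 2 members, SPIN1 and SPIN3, and in 35.8% of all tested genes.

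The surroundings of the 3 genes were described by the 4 nearest genes on either side whose FPKM averaged 1 or more. Some of these lie far away. By their lower coordinates, LINC01278 was 6367 kb from SPIN3 and FAAH2 6060.5 kb from SPIN4. SPIN3 and SPIN4 share some neighbors, so the 3 sets hold 20 different genes. Around SPIN1, the closest were RPS10P3, a ribosomal protein pseudogene, which starts 372 kb before SPIN1 (log2 fold change -0.07, SE 0.0901), and CKS2, a subunit of cyclin-dependent kinases, which starts 923 kb after it. CKS2 was the only 1 of these 8 neighbors that was called, where 9.37% of all tested genes were. It rose from an FPKM of 149 ± 6.20 (SD, n = 3) to 212 ± 28.4 (SD, n = 3), a log2 fold change of 0.52 (SE 0.0967, edgeR adjusted p = 0.0245), and the call was lost with each of the 3 pcCon samples left out in turn (highest adjusted p = 0.0837). SECISBP2, which starts 930 kb after SPIN1, had a log2 fold change of -0.02 (SE 0.0532). The log2 fold changes of the 8 neighbors ranged from -0.20 to 0.52, below that of SPIN1.

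Within its span SPIN1 overlaps a long noncoding RNA that was not analysed here and 2 processed pseudogenes on the other strand, HNRNPA1P14 and ENSG00000275017, and both had 0 reads in all 6 samples. SPIN4 lies within the span of LINC01278, a noncoding RNA on the same strand, of which 0 exon bases fall in SPIN4 in GENCODE 44. LINC01278 had a log2 fold change of -0.04 (SE 0.139), and SPIN4-AS1, on the opposite strand, had 0 reads in all samples. In GENCODE 44 SPIN3 spans more than the interval given above, and there it overlaps 1 such noncoding RNA, ENSG00000224799, also with 0 reads. The far end of its GENCODE 44 transcripts reaches NBDY (log2 fold change -0.13, SE 0.122).

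The 8 neighbors of SPIN3 had log2 fold changes between -0.43 and -0.01, and none (0) of them was called, where 9.37% of all tested genes were. Among them, FAAH2, an amide hydrolase, had a log2 fold change of -0.26 (SE 0.154) and ZXDB, a zinc finger gene, -0.22 (SE 0.0997). At an unadjusted p under 0.05 there was 1 among the 8 in edgeR, RRAGB, a Rag GTPase (-0.43), where 28.9% of all tested genes were under it. DESeq2 called 0 of the 8 and limma 0. Around SPIN4 AMER1, an inhibitor of Wnt signaling, fell from 1.81 ± 0.156 (SD, n = 3) to 1.06 ± 0.150 (SD, n = 3). Its log2 fold change was -0.77 (SE 0.130, adjusted p = 0.0195 in edgeR), and this call too was lost with each of the 3 pcCon samples left out in turn (highest adjusted p = 0.0650).

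The genes whose log2 CPM followed SPIN1 most closely over the 6 samples were HTR7 (Pearson's r = 0.998), RNF213 (0.998), RDH11 (0.997), PIF1 (0.997) and CEP250 (0.996). As the samples fall into 2 groups, these values mostly restate the group difference, and 17 tested genes had a value over 0.99. The likeness ignores size, since the log2 fold changes of these 5 genes were between 0.25 (RNF213) and 0.70 (PIF1). Over all 6 samples, YY2 itself gave 0.962 with SPIN1, which also restates the group difference for which SPIN1 was chosen. Within pcCon the sample highest in YY2 was lowest in SPIN1. Within pcYY2 the sample highest in YY2 was also highest in SPIN1. For SPIN3 the most similar genes were BLTP1, NEK6, FUT11, FPGT and TBC1D32, with log2 fold changes from -0.62 to -0.19. For SPIN4, whose groups overlapped, they were TNKS2, UBN2, TMTC3, AHSA2P and OSBPL8, with log2 fold changes from -0.25 to -0.05. All these genes were picked as the highest values among 12015 tested genes over only 6 samples, so nothing is read from the likeness.

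The other genes of the pathways in which spindlin 1 acts were taken from 8 lists written from general knowledge, with 96 tested genes in all. Of these, 5 were called as higher and 6 as lower in pcYY2, together 11.5%, close to the share of all tested genes. Their median log2 fold change was 0.01, and that of all tested genes was 0.00.

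In the complexes that write H3K4 methylation, 3 of 19 tested genes were called, all as higher, where 4.52% of all tested genes were. SETD1A, a catalytic subunit, had an FPKM of 12.2 to 13.4 in pcCon and 16.1 to 16.6 in pcYY2. Its log2 fold change was 0.38 (SE 0.0551, adjusted p = 0.0126 in edgeR). CXXC1, the CpG-binding subunit of the SETD1A complex, rose by a log2 fold change of 0.39 (SE 0.0698, adjusted p = 0.0228), and PAGR1, of the KMT2C and KMT2D complexes, by 0.42 (SE 0.0660, adjusted p = 0.0158). The median of this list was 0.12, and 15 of the 19 values were above 0, as were 50.3% of those of all tested genes. WDR5, a shared scaffold, had a log2 fold change of -0.04 (SE 0.0435, adjusted p = 0.585). SETD1A was called in 4, PAGR1 in 3 and CXXC1 in 2 of the 6 fits with a sample left out.

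The next 3 lists had 1 called gene each, beside 9.37% of all tested genes. Of 8 genes for H3K4 demethylases and their core partners, 1 was called, KDM1B, which fell by 0.27 on the log2 scale (SE 0.0554, adjusted p = 0.0336 in edgeR), from 11.8 ± 0.397 (SD, n = 3) to 9.76 ± 0.315 (SD, n = 3). KDM1A, the paralog of KDM1B, had a log2 fold change of 0.06 (SE 0.0554), and the median was -0.08. Among 14 tested genes for other readers of H3K4me3, 1 was called, TAF3, a subunit of the general factor TFIID. TAF3 rose by a log2 fold change of 0.33 (SE 0.0742, adjusted p = 0.0399), and the median of the readers was 0.12. Of 12 writers and readers of H3K9 methylation, 1 was called, SUV39H1, an H3K9 methyltransferase, and the median was -0.05. Its FPKM was 2.62 to 3.09 in pcCon and 3.83 to 4.98 in pcYY2, with a log2 fold change of 0.68 (SE 0.126, adjusted p = 0.0245). Leaving out a sample ended the call of TAF3 in all 6 fits and those of KDM1B and SUV39H1 in all but 1, the fit without pcYY2 sample 1. KDM1B was also not called with the filter at 0.1 (adjusted p = 0.0600 in edgeR) or with no filter, and TAF3 was not called with no filter.

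Among nuclear partners of beta-catenin and Wnt target genes, 5 of 12 tested genes were called, all as lower in pcYY2, where 4.85% of all tested genes were. They included CTNNB1, which encodes beta-catenin itself and had a small change, from an FPKM of 30.6 ± 1.02 (SD, n = 3) to 26.8 ± 0.584 (SD, n = 3). Its log2 fold change was -0.18 (SE 0.0415, adjusted p = 0.0433 in edgeR). The others were targets of the pathway. SP5, a transcription factor with 24 to 64 reads per sample, changed most, with an FPKM of 1.41 to 1.53 in pcCon and 0.684 to 0.797 in pcYY2 (log2 fold change -0.95, SE 0.155, adjusted p = 0.0178). SP5 passed the filter on the mean FPKM only through pcCon, since its mean was 1.48 in pcCon and 0.755 in pcYY2. AXIN2 and RNF43 are targets that restrain Wnt signaling. For AXIN2, a scaffold of the complex that degrades beta-catenin, the log2 fold change was -0.37 (adjusted p = 0.0487), RNF43, a ubiquitin ligase, -0.28 (adjusted p = 0.0133) and CCND1, which encodes cyclin D1, -0.26 (adjusted p = 0.0165). TCF7L2, which encodes TCF4, did not pass, with a log2 fold change of 0.10 (SE 0.0555, adjusted p = 0.286). The median of the list was -0.26. Of the 12 values 3 were above 0, those of TCF7L2 and of the partners BCL9 (0.07) and BCL9L (0.13). The rest of the 19 listed genes, MYC among them, had a mean FPKM under 1 and were not tested. RNF43 was called in 4, CCND1 in 3, SP5 in 2, AXIN2 in 1 and CTNNB1 in 0 of the 6 fits with a sample left out. With the filter at 0.1 the calls of AXIN2 and CTNNB1 were lost as well (adjusted p = 0.0725 and 0.0857 in edgeR).

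None of the 8 arginine methyltransferases, 18 genes of RNA polymerase I transcription and 5 genes around uL18, MDM2 and p53 was called in edgeR (0 in each list), and DESeq2 and limma called 0 as well. At an unadjusted p under 0.05 there were 3, 6 and 2 of them in edgeR, where 28.9% of all tested genes were under it, and the medians of the log2 fold changes were -0.10, -0.03 and 0.03. PRMT2, a methyltransferase of histone H3 arginine 8, had a log2 fold change of 0.19 (SE 0.0711, adjusted p = 0.129 in edgeR). It was the highest of its list, in which 3 of 8 values were above 0. UBTF, the main architectural factor of rRNA genes, had a log2 fold change of 0.16 (SE 0.0457, adjusted p = 0.0658). The values of its list ranged from -0.30 to 0.26, with 9 of 18 above 0. RPL5, which encodes the spindlin 1 partner uL18, had a log2 fold change of -0.11 (SE 0.0361, adjusted p = 0.104). It was the lowest of its list, which ranged up to 0.24 with 3 of 5 values above 0.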

How the data were processed

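After read filtering, the authors aligned to GRCh38 using Tophat v2.1.0 and obtained FPKM with Cufflinks v2.1.1. The submitters' processing notes also name Bowtie2 and HTSeq. The strand setting of the counting is not given in the sources used here. The deposited table holds counts per gene, without normalization, and FPKM, which equals the deposited count over a fixed gene length and the total count of the sample. It has 50868 genes and no column without a sample (0). Current symbols were taken by gene identifier for 97.6% of the genes, and sequences from RefSeq.

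Counts of pcYY2 and pcCon were compared with edgeR 4.0.16 (R 4.3.3, glmQLFit and glmQLFTest, TMM normalization) over genes whose FPKM averaged 1 or more, with a threshold of 0.05 on the Benjamini-Hochberg adjusted p. SPIN2B comes from a filter at 0.1. Standard errors are the log2 fold change over the square root of F. The alternatives were other filters, upper quartile scaling, DESeq2 1.42.0, limma 3.58.1 on log2(FPKM + 1) and log2(FPKM + 0.1), a replicate block and leaving out each sample. The tests were tried on simulated data. A floor of 3 counts corresponds to 0.101 to 0.198 CPM and covers counting error only.

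The genes, lists and tests were chosen with earlier results of these data known. Named were the spindlin family and SPINDOC, YY2 and YY1, in each list the called genes, at most the 4 with the smallest p, the 4 nearest genes on each side of a member, genes that overlap it, and the 5 genes most like SPIN1. Outside this rule, and after their values were seen, the fifth called Wnt gene (AXIN2), DGKH, KRT20, the genes most like SPIN3 and SPIN4, and WDR5, KDM1A, TCF7L2, BCL9, BCL9L, MYC, PRMT2, UBTF and RPL5 were named. Protein sequences were not used here.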

Additional observations from a re-analysis of the deposited data

How the results depend on the processing

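The log2 fold change of SPIN1 was between 1.68 and 1.99 in the 13 alternatives, that of SPIN3 between -0.24 and -0.15 and that of SPIN4 between -0.12 and -0.01, and none (0) changed sign. On log2(FPKM + 1), whose pseudocount understates changes of low genes, limma gave 1.68 for SPIN1 and -0.15 for SPIN3. Per kilobase of canonical transcript, a scale chosen after seeing the data, the levels in pcCon and pcYY2 were 7.83 and 28.3 for SPIN1, 1.53 and 1.30 for SPIN3, and 5.56 and 5.27 for SPIN4.

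Counts of called genes moved more. With the replicate number as a block (replicate block), 51 genes were higher and 50 lower against 543 and 583, and 0 list genes were called in either direction against 5 and 6. In all, 17 and 13 list genes (31.2% of those tested) had an unadjusted p under 0.05 in that edgeR fit, as did 25.9% of all tested genes, and DESeq2 and limma, without a block, called 16 and 11. The calls of the neighbors CKS2 and AMER1 were lost with the block too (adjusted p = 0.0649 and 0.0602). Samples with the same number did not deviate together (correlations of -0.0274, -0.0318 and -0.0175), and no sample correlated best with its own number. With each sample left out in turn, 138 to 402 genes were higher and 147 to 419 lower, and 0 to 6 list genes were higher and 0 to 4 lower. The fit without pcCon sample 2 called 0 list genes, with 14 higher and 14 lower (29.2%) at an unadjusted p under 0.05, beside 23.1% of all tested genes. With a filter at a mean FPKM of 0.1 or with none beyond 1 count, 3 list genes were lower. The cause of these shifts was not tested. SPIN2A and SPIN2B rest on at most 48 reads per sample, and the part of depth was not tested.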
